A study of Mus musculus with 16 samples.

Results

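The dystrophin-glycoprotein complex is described here through 9 genes, which were taken by symbol from the 41388 genes of the count table: *Dmd*, *Utrn*, *Dag1*, *Sgca*, *Sgcb*, *Sgcd*, *Sspn*, *Sntb1* and *Dtna*. All 9 passed the filter on low counts in every comparison. RNA was sequenced from quadriceps muscle of C57BL/6 mice (a C57BL6J background in the study's methods) at postnatal day 36. *Mtm1* KO mice carry a germline deletion of exon 4 of *Mtm1*, the X-linked gene for the lipid phosphatase myotubularin, and WT mice carry no deletion. Both genotypes were either untreated or given tamoxifen (TAM), a selective estrogen receptor modulator, in chow at 40 mg/kg per day from day 21. The samples are 16 mice, with 4 libraries for each genotype without tamoxifen (WT, *Mtm1* KO) and 4 for each with it (WT + TAM, *Mtm1* KO + TAM), and the study's own set of 14 libraries (n = 3 without and 4 with tamoxifen) was the main one, since it leaves out WT replicate 1 and *Mtm1* KO replicate 12. The deletion is present in every cell, and a whole muscle holds fibers, vessels, nerve, connective tissue and immune cells, so that fewer cells of a type and less RNA per cell cannot be told apart.

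The complex spans the muscle fiber membrane and links the actin cytoskeleton to the extracellular matrix. Dystrophin binds actin inside the fiber and the beta subunit of dystroglycan at the membrane, and the alpha subunit of dystroglycan binds laminin outside it once it carries a particular sugar chain. The sarcoglycans and sarcospan form a subcomplex beside dystroglycan, and the syntrophins and dystrobrevins hold signaling proteins such as neuronal nitric oxide synthase on the inner side. Loss of dystrophin, of a sarcoglycan or of the sugar chain causes muscular dystrophy, and utrophin, a relative of dystrophin, takes its place at the neuromuscular junction and in regenerating fibers.

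In *Mtm1* KO muscle the RNA of the complex did not move as a block. With the genotype effect averaged over treatment (7 libraries against 7), *Sgcd*, the gene for delta-sarcoglycan, rose, whereas *Sgcb*, the gene for beta-sarcoglycan, and *Dag1*, the gene for dystroglycan, fell. The other 6 genes, *Dmd* and *Utrn* among them, did not pass an adjusted p of 0.01. These 3 of 9 genes stand beside a background of 19.4% of the 15556 genes tested. Of the 3, only *Sgcd* kept its call under all 22 alternative settings. Tamoxifen passed the test for none of the 9 genes in either genotype.

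Depth was similar, with 25116179 to 29847222 counts per library. *Mtm1*, the targeted gene, lay at 13.3 to 14.6 normalized CPM (counts scaled to library size with TMM factors) in WT replicates 2 to 4 and at 12.1 to 18.6 in WT + TAM. It lay at 2.06 to 2.55 in *Mtm1* KO replicates 9 to 11 and at 1.77 to 3.08 in *Mtm1* KO + TAM. The library labelled WT replicate 1 held 3.69, near the KO libraries, which goes against its label for this gene. This library and *Mtm1* KO replicate 12 (3.06) also stood apart in transcript length: long transcripts minus short ones was -0.83 and -0.44 on the log2 scale, against -0.35 to 0.41 in the 14 libraries of the main set. Skeletal muscle was present throughout, since none of the 8 fiber markers was at 0, and their summed level was 88527 to 108337 RPKM (reads scaled to gene length and library total) in the 7 WT libraries and 59204 to 81700 in the 7 KO libraries. Of these 8 markers, 0 rose and 6 fell at 0.01 in the averaged comparison, where 19.4% of all genes passed. Other values of WT replicate 1 were mixed. Its fiber markers summed to 125384 RPKM, above both ranges. Its 7 satellite cell and regeneration markers summed to 33.4 RPKM, against 36.3 to 42.4 in WT and 110.5 to 146.2 in *Mtm1* KO of the main set. Its 7 neuromuscular junction markers (49.1 RPKM) lay between WT (33.6 to 36.5) and *Mtm1* KO (77.9 to 111.9). Its *Sgcd* lay inside the KO range. Why its *Mtm1* was low was not tested.

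On the scale per length, the 9 genes covered a wide range in WT muscle. *Sgca*, the gene for alpha-sarcoglycan, was highest at 96.3 ± 4.49 RPKM (SD, n = 3). *Sgcb* followed at 48.3 ± 6.63, *Dag1* at 36.7 ± 4.63, *Sspn* at 27.96 ± 1.17 and *Dtna* at 12.4 ± 0.75 RPKM, with no overlap between neighbours in this order. *Utrn* (2.61 ± 0.38 RPKM) and *Dmd* (2.504 ± 0.17 RPKM) overlapped. *Sgcd* (1.07 ± 0.15 RPKM) and *Sntb1* (0.64 ± 0.36 RPKM) overlapped at the lower end. In *Mtm1* KO the 2 ends of the order were the same, with *Sgca* at 101.5 ± 10.4 and *Sntb1* at 0.40 ± 0.19 RPKM, and *Sgcd* (2.03 ± 0.27 RPKM) no longer overlapped *Sntb1*. The level per length rests on the length the authors used, which was 23801 bases for *Dmd*, 12382 for *Utrn* and 8258 for *Sgcd*. The longest annotated transcripts have 14910, 12382 and 4453 bases. With those lengths the RPKM of *Dmd* and *Sgcd* would be higher and that of *Utrn* the same. The order of *Utrn* and *Dmd*, and their overlap, therefore hold only for the lengths used.

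**Figure D1:**
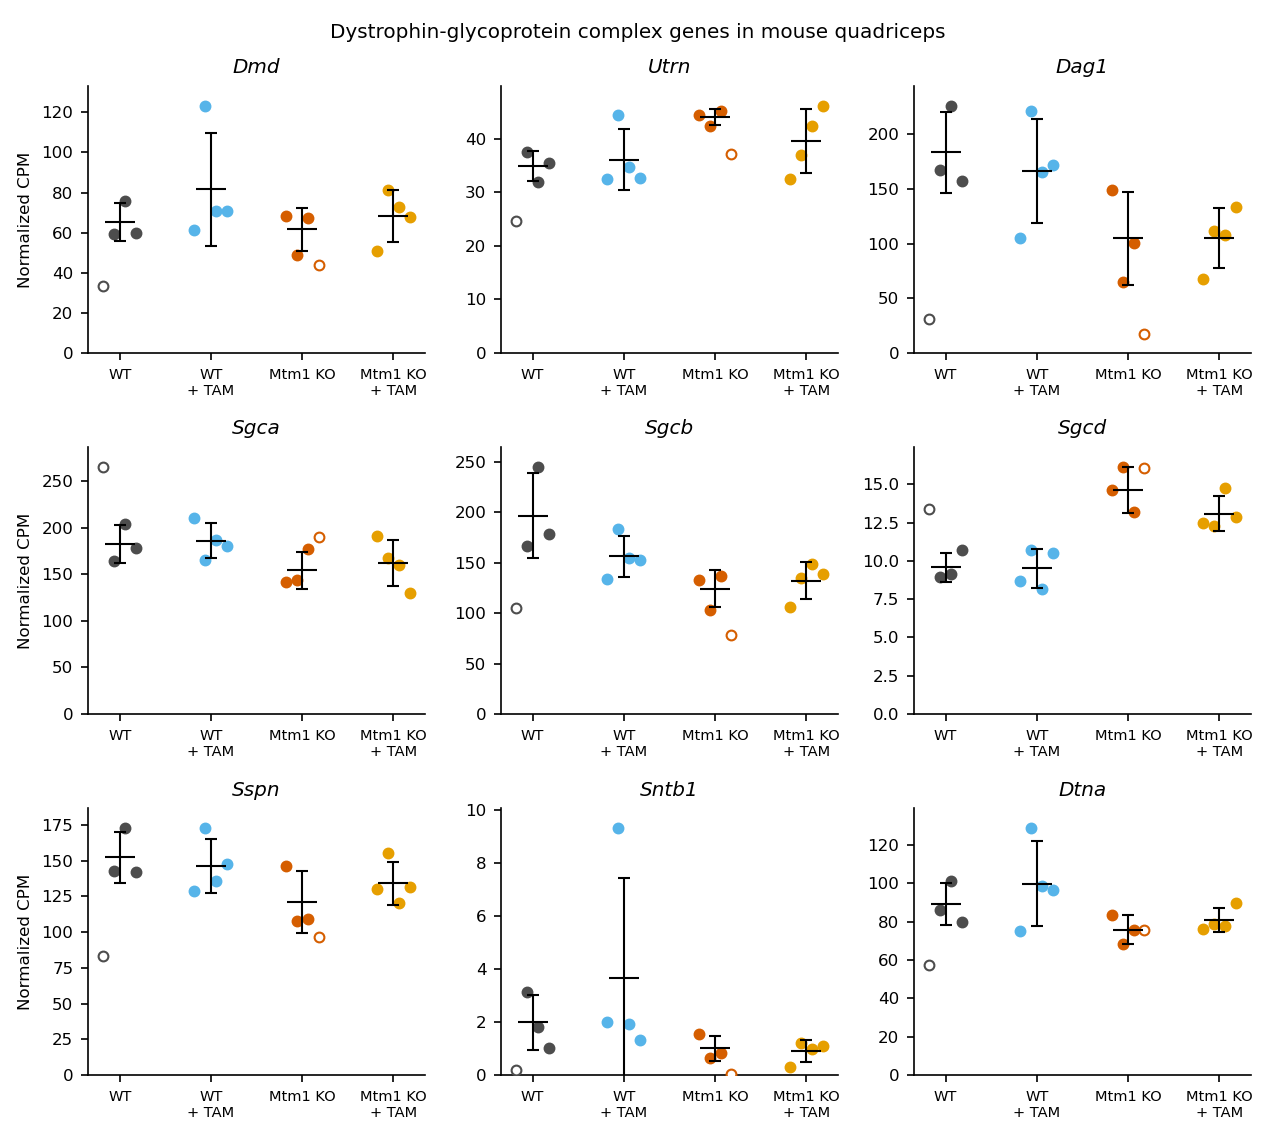
Normalized CPM (y axes, linear, from 0) of the 9 genes in each library of the 4 groups (x axes); filled points are the 14 libraries of the main set, open points WT replicate 1 and *Mtm1* KO replicate 12, and bars the mean ± SD of the filled points (the lower bar of *Sntb1* in WT + TAM is clipped at 0). The 7 filled KO points of *Sgcd* lie between 12.3 and 16.2, above all 7 filled WT points, and the other genes overlap between genotypes.

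The bases before the annotated start are shown for the 3 genes that passed, since they are the members whose RNA differed between the genotypes. *Sgcd* (ENSMUSG00000020354) lies on chromosome 11 from 46896253 to 47988969 on the minus strand (GRCm38, GENCODE vM21), *Sgcb* (ENSMUSG00000029156) on chromosome 5 from 73632749 to 73647790 on the minus strand, and *Dag1* (ENSMUSG00000039952) on chromosome 9 from 108204634 to 108263958 on the minus strand. Each sequence is the part of the 250 bases before the RefSeq start (GRCm38.p6) that precedes any annotated exon, written 5′ to 3′ on the gene's strand. Capitals mark matches to the E-box pattern (CANNTG). Myogenic factors of the MyoD family bind some forms of this pattern, and a match does not tell which factor binds it.
*Sgcd*, chr11:47379523-47379575: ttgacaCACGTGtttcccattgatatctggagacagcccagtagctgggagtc
*Sgcb*, chr5:73647791-73647987: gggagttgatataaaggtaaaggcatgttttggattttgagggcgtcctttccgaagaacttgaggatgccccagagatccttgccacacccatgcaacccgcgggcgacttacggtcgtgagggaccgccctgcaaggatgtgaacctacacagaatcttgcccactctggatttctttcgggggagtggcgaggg
*Dag1*, chr9:108263959-108264208: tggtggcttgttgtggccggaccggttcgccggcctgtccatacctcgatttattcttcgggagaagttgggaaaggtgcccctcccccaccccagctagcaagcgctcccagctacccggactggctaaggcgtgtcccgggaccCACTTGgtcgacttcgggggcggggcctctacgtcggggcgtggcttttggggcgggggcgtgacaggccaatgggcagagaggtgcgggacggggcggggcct

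On both strands of the whole 250 bases, *Sgcd* held 2 E-boxes, at 244 and 86 bases before the start, *Dag1* held 1 at 104, and the *Sgcb* window held none. An E-box is present in 66.2% of 32851 promoters of this length. *Sgcd* also held 1 copy of CATTCC, the core of the MCAT site of TEAD factors, which 12.6% of promoters hold. GGTCA, the half-site of the estrogen response element, was absent from the 3 windows, and 35.2% of promoters hold it. GC boxes (GGGCGG) numbered 1 in *Sgcd*, 1 in *Sgcb* and 3 in *Dag1*, and 32.7% of promoters hold at least 1. The RefSeq start of *Sgcd* lies inside the gene as GENCODE draws it, so that these bases belong to 1 of several starts.

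*Sgcd* encodes the delta subunit, one of the sarcoglycan chains of the subcomplex. Its level was 8.97, 9.13 and 10.7 normalized CPM in WT and 8.70, 10.7, 8.18 and 10.5 in WT + TAM. It was 14.6, 16.2 and 13.2 normalized CPM in *Mtm1* KO and 12.5, 12.3, 14.8 and 12.9 in *Mtm1* KO + TAM. Every KO library lay above every WT library of the main set, and *Sgcd* was the sole member without overlap over the 7 against 7 libraries, where 10.7% of all genes did not overlap. The log2 fold change averaged over treatment was 0.51 ± 0.10 (SE), a 1.43-fold difference (95% confidence interval 1.23 to 1.65, adjusted p = 0.00107 by edgeR's quasi-likelihood test). In the separate comparisons it was 0.61 ± 0.16 (adjusted p = 0.0358) for *Mtm1* KO against WT and 0.44 ± 0.14 (adjusted p = 0.0468) for *Mtm1* KO + TAM against WT + TAM, neither of which passed 0.01. The counts behind it were modest, at 194 to 281 per library in the WT groups and 373 to 516 in the KO groups.

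The library labelled WT replicate 1 held 13.4 normalized CPM of *Sgcd*, inside the KO range, and *Mtm1* KO replicate 12 held 16.1. With all 16 libraries the averaged log2 fold change was 0.46 (adjusted p = 0.00598). *Sgcd* is also expressed in smooth muscle. Of 7 smooth muscle and pericyte markers, 0 rose and 2 fell at 0.01 in the averaged comparison, where 19.4% of all genes passed. Their summed level was 155 to 239 RPKM in the WT groups and 190 to 237 in the KO groups. Of 7 fibroblast markers, 2 rose and 0 fell in the same comparison, with a summed level of 594 to 1034 RPKM in the WT groups and 1085 to 1613 in the KO groups. None of these 14 markers was at 0 in every library, and their part in the result was not tested.

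*Sgcb* encodes the beta subunit, which assembles with the delta subunit early in the making of the subcomplex. Its level was 166.5, 244.9 and 178.2 normalized CPM in WT and 133.7, 183.3, 154.5 and 153.0 in WT + TAM. It was 132.9, 103.0 and 136.5 normalized CPM in *Mtm1* KO and 106.3, 135.2, 148.4 and 138.8 in *Mtm1* KO + TAM. The untreated groups did not overlap, the treated groups did, and WT replicate 3 was the highest of all. The log2 fold change averaged over treatment was -0.47 ± 0.11 (adjusted p = 0.00410, edgeR), or 0.72-fold (95% confidence interval 0.61 to 0.85). For *Mtm1* KO against WT it was -0.66 ± 0.17 (adjusted p = 0.0379), and for the treated groups -0.26 ± 0.13 (adjusted p = 0.195). The averaged call was lost without WT replicate 3 and without *Mtm1* KO replicate 10 (adjusted p = 0.0145 in both), and with all 16 libraries (adjusted p = 0.0358). It was also lost with library size alone (-0.16, adjusted p = 0.266) and with limma on log2(RPKM + 1) (-0.16, adjusted p = 0.255).

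*Dag1* encodes the precursor of both dystroglycan subunits, the laminin receptor of the complex. Its level was 167.6, 226.0 and 157.4 normalized CPM in WT and 105.4, 221.7, 165.2 and 172.0 in WT + TAM. It was 149.0, 64.5 and 100.5 normalized CPM in *Mtm1* KO and 67.3, 111.8, 108.3 and 133.2 in *Mtm1* KO + TAM. The untreated groups did not overlap, and WT + TAM replicate 5 lay within the KO range. The log2 fold change averaged over treatment was -0.76 ± 0.20 (adjusted p = 0.00808, edgeR), or 0.59-fold (95% confidence interval 0.44 to 0.79). It was -0.81 ± 0.27 (adjusted p = 0.0770) for the untreated and -0.68 ± 0.23 (adjusted p = 0.0660) for the treated groups. Leaving out 1 library at a time ended the averaged call in 11 of 14 cases, with adjusted p up to 0.0247, and the value was -0.76 (adjusted p = 0.142) with all 16 libraries and -0.44 (adjusted p = 0.0767) with library size alone. With limma on log2(RPKM + 1) it was -0.46 (adjusted p = 0.0785).

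*Dag1* varied with the balance of long and short transcripts between libraries. That balance was taken as the median centred log2 CPM of the longest 25% of expressed genes minus that of the shortest 25%. It was 0.08 to 0.15 in WT and -0.18 to 0.04 in *Mtm1* KO. It was -0.16 to 0.41 in WT + TAM and -0.35 to 0.04 in *Mtm1* KO + TAM. WT + TAM replicate 5, the WT library of the main set with the lowest balance, had the lowest *Dag1* of the WT libraries (105.4 normalized CPM), and *Mtm1* KO replicate 9, the KO library with the highest balance, had the highest *Dag1* of the KO libraries (149.0). With the balance as a covariate, an alternative chosen after the data were seen, the log2 fold change of *Dag1* was -0.30 (adjusted p = 0.110) and that of *Sgcb* -0.27 (adjusted p = 0.0720), while *Sgcd* kept its call at 0.57 (adjusted p = 0.00393). With the balance of GC-rich and GC-poor transcripts instead, all 3 kept their calls (*Dag1* -0.47, adjusted p = 0.00113). The balance differs between the genotypes, so that its part and that of the genotype cannot be told apart in these libraries.

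**Figure D2:**
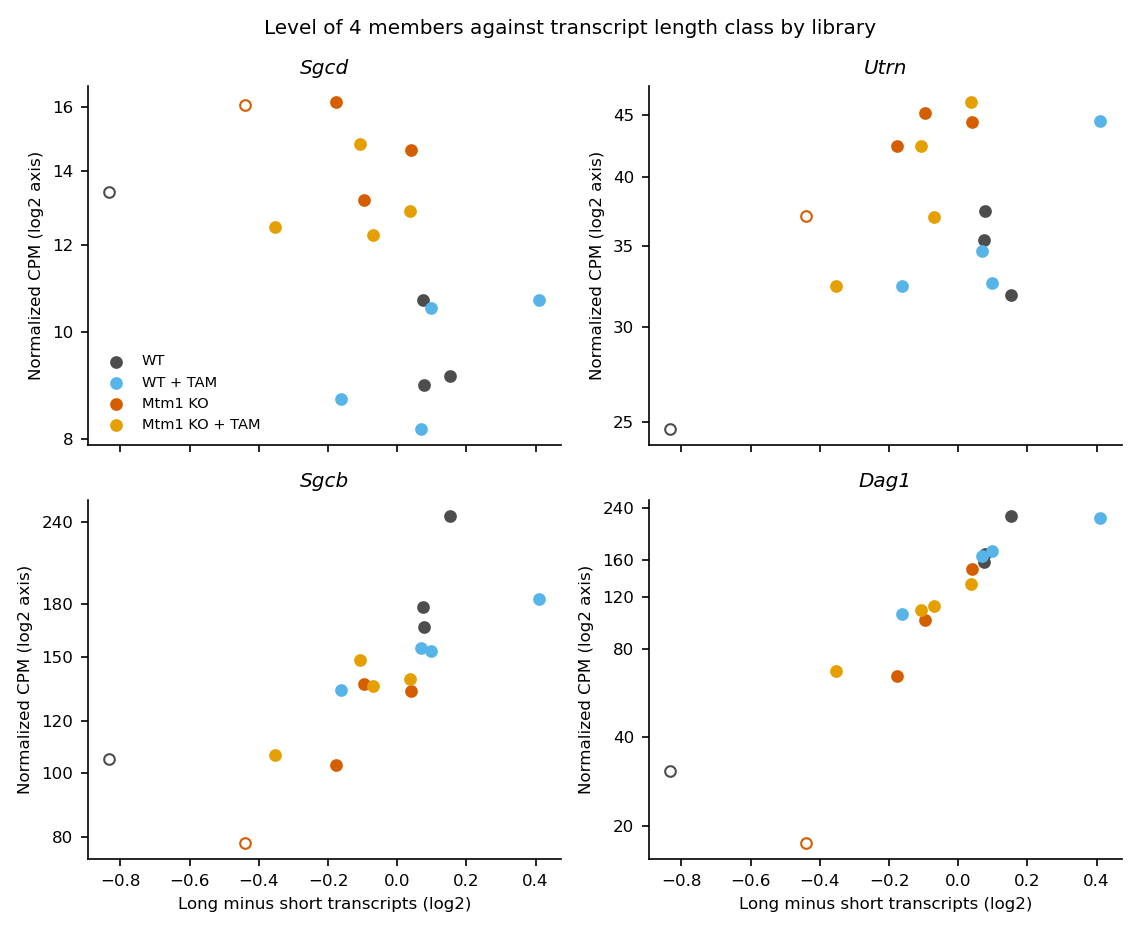
Normalized CPM (y axes, log2-spaced) of *Sgcd*, *Utrn*, *Sgcb* and *Dag1* in each library against the log2 difference between long and short transcripts in that library (x axes); colors are the 4 groups, and open points WT replicate 1 and *Mtm1* KO replicate 12. *Dag1* is lowest in the open points (30.8 and 17.5) and highest (226.0 and 221.7) in the 2 libraries farthest to the right, whereas the 7 filled KO points of *Sgcd* lie above the 7 filled WT points.

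*Dmd*, the gene for dystrophin, lies on chromosome X from 82948870 to 85206141 on the plus strand. Its level was 59.5, 76.0 and 60.0 normalized CPM in WT and 61.5, 123.3, 70.6 and 70.9 in WT + TAM. It was 68.5, 49.1 and 67.2 normalized CPM in *Mtm1* KO and 51.0, 81.4, 73.0 and 67.9 in *Mtm1* KO + TAM. All groups overlapped, and WT + TAM replicate 6 stood above the rest. The log2 fold change averaged over treatment was -0.19 ± 0.15 (adjusted p = 0.365), with a 95% confidence interval of 0.70- to 1.10-fold. Its sign turned with the scaling, at 0.12 with library size alone and 0.17 with the length balance as covariate.

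*Utrn*, the gene for utrophin, lies on chromosome 10 from 12382188 to 12869365 on the minus strand. Its level was 37.4, 31.9 and 35.4 normalized CPM in WT and 44.4, 42.4 and 45.2 in *Mtm1* KO, with no overlap. In the treated groups it was 32.4, 44.5, 34.7 and 32.7 in WT + TAM and 32.5, 37.0, 42.4 and 46.1 in *Mtm1* KO + TAM, with overlap. The log2 fold change was 0.33 ± 0.12 (adjusted p = 0.0994) in the untreated and 0.11 ± 0.14 (adjusted p = 0.619) in the treated comparison. Averaged over treatment it was 0.21 ± 0.10 (adjusted p = 0.101, edgeR), or 1.16-fold (95% confidence interval 1.01 to 1.33). It passed with library size alone (0.52, adjusted p = 0.00135), with limma on log2(RPKM + 1) (0.39, adjusted p = 0.00311) and with the length balance as covariate (0.37, adjusted p = 0.00831). The ratio of *Utrn* to *Dmd* per length was 1.05 ± 0.21 (SD, n = 3) in WT, 0.88 ± 0.14 (n = 4) in WT + TAM, 1.40 ± 0.23 (n = 3) in *Mtm1* KO and 1.13 ± 0.19 (n = 4) in *Mtm1* KO + TAM. In *Mtm1* KO it ran from 1.25 to 1.66, just above the highest WT value of 1.21, and the treated groups overlapped. The size of the ratio rests on unlike lengths, 23801 bases for *Dmd* (longest transcript 14910) and 12382 for *Utrn* (its longest transcript). With the longest transcript for both, the ratio would be lower by the same factor in every library. Utrophin is concentrated at the neuromuscular junction. Of 7 junction markers, 4 rose at 0.01 in the averaged comparison, where 19.4% of all genes passed. Their summed level was 32.4 to 39.8 RPKM in the WT groups and 55.4 to 111.9 in the KO groups, none of the 7 being at 0 in every library. Of 7 satellite cell and regeneration markers, 3 rose and 1 fell in that comparison, and the part of both lists was not tested.

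*Sgca* and *Sspn*, the gene for sarcospan, were close between the genotypes. *Sgca* ranged from 164.1 to 210.6 normalized CPM in the 7 WT libraries and from 130.2 to 190.9 in the 7 KO libraries, with a log2 fold change of -0.24 ± 0.10 (adjusted p = 0.0771, edgeR), or 0.85-fold (95% confidence interval 0.73 to 0.98). *Sspn* ranged from 128.9 to 173.0 and from 107.9 to 155.6 normalized CPM, with -0.25 ± 0.10 (adjusted p = 0.0617, edgeR), or 0.84-fold (95% confidence interval 0.73 to 0.97). The genotypes overlapped for both, and with library size alone the values were 0.07 and 0.06. With the length balance as covariate they were -0.40 (adjusted p = 0.0109) for *Sgca* and -0.10 (adjusted p = 0.512) for *Sspn*. With the GC balance they were -0.32 (adjusted p = 0.0195) and -0.17 (adjusted p = 0.185). *Sgca* lies on chromosome 11 from 94962791 to 94976327 and *Sspn* on chromosome 6 from 145931641 to 145965223. Of the exon bases of *Sspn*, 69 are shared with an antisense gene, *Sspnos*.

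*Sntb1*, the gene for beta-1-syntrophin, an adaptor that binds dystrophin and dystrobrevin, was near the limit of this depth. It had 9 to 230 counts per library of the main set, 4 in WT replicate 1 and 1 in *Mtm1* KO replicate 12. Its level was 3.11, 1.80 and 1.03 normalized CPM in WT, 1.98, 9.31, 1.94 and 1.34 in WT + TAM, 1.54, 0.65 and 0.83 in *Mtm1* KO and 0.30, 1.20, 0.98 and 1.10 in *Mtm1* KO + TAM. The treated groups did not overlap, and WT + TAM replicate 6 was several times above the others of its group. The log2 fold change averaged over treatment was -1.51 ± 0.45 (adjusted p = 0.0184, edgeR), and for the treated groups -2.03 ± 0.62 (adjusted p = 0.0451). Without WT + TAM replicate 6 these were -0.99 (adjusted p = 0.0396) and -0.99 (adjusted p = 0.168). The averaged value passed 0.01 with DESeq2 (adjusted p = 0.00224) and without the filter on low counts (adjusted p = 0.00742), and with the length balance as covariate it was -0.56 (adjusted p = 0.309). That library also had the highest balance of long over short transcripts, at 0.41.

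*Dtna*, the gene for alpha-dystrobrevin, ranged from 75.4 to 129.0 normalized CPM in the 7 WT libraries and from 68.2 to 89.9 in the 7 KO libraries, with overlap. Its log2 fold change averaged over treatment was -0.29 ± 0.10 (adjusted p = 0.0433, edgeR), which passed 0.05 and not 0.01, and it was 0.02 with library size alone. With the length balance as covariate it was -0.06 (adjusted p = 0.638), and with the GC balance -0.17 (adjusted p = 0.153). It was -0.23 (adjusted p = 0.171) with all 16 libraries, and passed 0.01 without WT + TAM replicate 5 (-0.35, adjusted p = 0.00865). Of its exon bases, 90 are shared with an antisense gene.

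**Figure D3:**
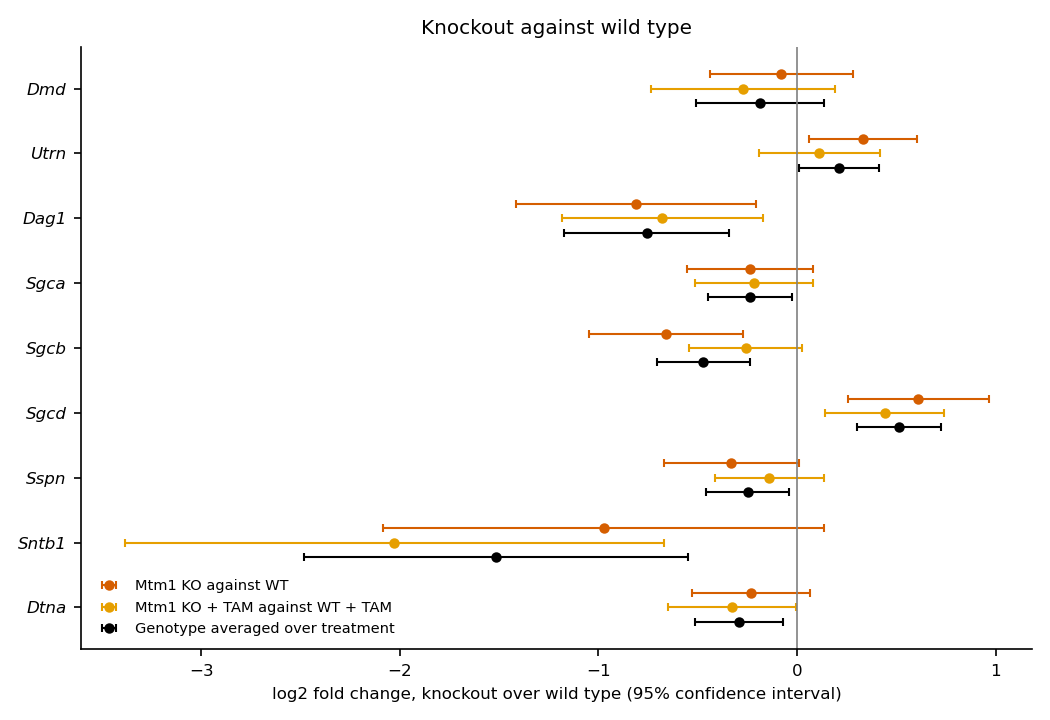
Log2 fold change of each gene, knockout over wild type (x axis), with its 95% confidence interval as bars, for the untreated groups, the treated groups and the genotype effect averaged over treatment. *Sgcd* and *Utrn* lie to the right of 0 and the other 7 genes to the left, and the interval of *Sntb1* is the widest.

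The counts of members that passed stand here beside the share of all genes that did. In *Mtm1* KO against WT 0 of 9 passed 0.01, where 3.60% of 14740 genes did, and 2 of 9 (*Sgcd*, *Sgcb*) passed 0.05, where 12.8% did. In that comparison 4 of 9 genes did not overlap between the groups (*Sgcd* and *Utrn* higher, *Sgcb* and *Dag1* lower), against 35.7% of all genes. In *Mtm1* KO + TAM against WT + TAM 0 of 9 passed 0.01 against 6.72% of 14563 genes, and 2 of 9 (*Sgcd*, *Sntb1*) passed 0.05 against 17.0%. There 2 of 9 did not overlap, against 22.4%. Averaged over treatment, 5 of 9 passed 0.05 against 33.3%. The median log2 fold change of the 9 genes was -0.24, -0.26 and -0.25 in the 3 comparisons, where that of all genes was 0.02, -0.01 and 0.01, and 2 of 9 values were above 0 in each. The 3 comparisons share libraries.

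The direction of the smaller differences against 0 depended on the scaling. With library size alone, the median of all genes shifted by 0.31 on the log2 scale in the averaged comparison, and *Dmd*, *Sgca*, *Sspn* and *Dtna* took the opposite sign. Relative to that median the values were 0.51 for *Sgcd*, 0.20 for *Utrn*, -0.47 for *Sgcb* and -0.76 for *Dag1*. For the genes that changed sign they were -0.19 (*Dmd*), -0.24 (*Sgca*), -0.25 (*Sspn*) and -0.29 (*Dtna*), the same to 2 digits as their log2 fold changes with TMM. Relative to all genes, their direction did not change with this scaling. In the 7 WT libraries 23.6 to 27.6% of all counts fell on the top 10 genes, and in the 7 KO libraries 15.01 to 19.04% did.

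**Figure D4:**
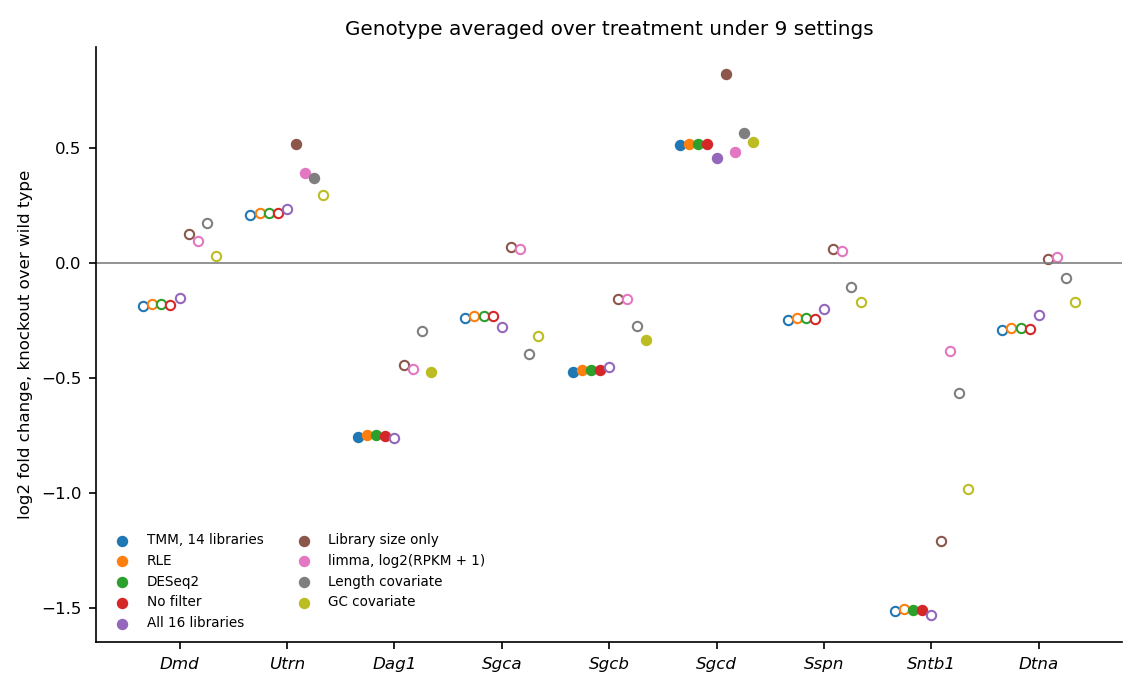
Log2 fold change of the 9 genes, knockout over wild type and averaged over treatment (y axis), under 9 settings (colors); filled points passed an adjusted p of 0.01. *Sgcd* is filled under all 9 (0.46 to 0.82), *Utrn* under 3, and *Dag1* moves between -0.76 and -0.30.

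No difference with tamoxifen passed the test for any of the 9 genes. In *Mtm1* KO + TAM against *Mtm1* KO 0 of 9 passed 0.01 or 0.05, with log2 fold changes from -0.18 (*Sntb1*, *Sgcd*) to 0.13 (*Sspn*, *Dmd*). In all, 0 of 15062 genes (0%) passed 0.01 there by edgeR, and 1137 had an unadjusted p under 0.05, while DESeq2 called 72. For *Sgcd* the value was -0.18 ± 0.14, with an interval of 0.72- to 1.09-fold, and for *Utrn* -0.17 ± 0.13, with 0.72- to 1.09-fold. For *Dag1* it was -0.01 ± 0.27, with the wide interval of 0.66- to 1.49-fold. In WT + TAM against WT 0 of 9 passed, against 0.131% of 14544 genes. *Sgcb* had the lowest p there, at -0.34 ± 0.15 (adjusted p = 0.453), and *Dmd* was at 0.32 ± 0.22 (adjusted p = 0.659). The largest value was that of *Sntb1*, at 0.86 ± 0.67 (adjusted p = 0.700), with the wide interval of 0.64- to 5.15-fold. The difference between the effects in *Mtm1* KO and in WT passed for 0 of 9 genes and for 0 of 15556 genes (0%) by edgeR, 664 of which had an unadjusted p under 0.05, while DESeq2 called 12. Its standard errors were 0.19 to 0.90 for the members. In simulated data, 2% of genes with a log2 fold change of 1 were called for that difference.

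Of 9 further subunits of the complex on the list, 7 were tested in the averaged comparison, and 0 passed 0.01 by edgeR, 1 had an unadjusted p under 0.05, and DESeq2 called 1. Among all 15556 genes, 19.4% passed 0.01 by edgeR and 6792 had an unadjusted p under 0.05. Their median log2 fold change was -0.26, against 0.01 for all genes.

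Among 12 genes whose products bind the complex at the membrane, 1 rose and 3 fell at 0.01 in the averaged comparison, where 19.4% of all genes passed. *Krt8*, the gene for keratin 8, an intermediate filament protein that links the contractile apparatus to the complex, was at 2 to 33 counts per library in the WT groups and at 178 to 1156 in the KO groups, a log2 fold change of 5.55 ± 0.55 (adjusted p = 4.67e-06). *Nos1*, the gene for the neuronal nitric oxide synthase that syntrophin and dystrophin anchor, ranged from 23.6 to 47.2 normalized CPM in the WT groups and from 8.403 to 23.8 in the KO groups, at -0.97 ± 0.18 (adjusted p = 7.80e-04). It was -1.23 ± 0.26 (adjusted p = 0.00844) between the treated and -0.68 ± 0.16 (adjusted p = 0.0254) between the untreated groups. The treated call of *Nos1* was lost in 7 of 15 alternative settings. These were library size alone, limma, and leaving out WT + TAM replicate 6, 7 or 8 or *Mtm1* KO + TAM replicate 13 or 15 (adjusted p up to 0.0261). *Scn4a*, the gene for the muscle sodium channel, ranged from 287 to 434 normalized CPM in the WT groups and from 161 to 206 in the KO groups, at -0.91 ± 0.10 (adjusted p = 9.86e-06). *Aqp4*, the gene for a water channel that the complex holds at the membrane, was at -1.01 ± 0.23 (adjusted p = 0.00343) and lost its call in 7 of 22 alternative settings. It was -0.66 (adjusted p = 0.0614) with the length balance as covariate, and its adjusted p was 0.0249 with limma, 0.0170 with library size alone, 0.0123 with the GC balance as covariate and 0.0106 with all 16 libraries. The other losses came without WT replicate 4 and without *Mtm1* KO replicate 10 (adjusted p up to 0.0117). *Nos1* also lost its averaged call with the length balance as covariate (-0.84, adjusted p = 0.0145), whereas *Krt8* and *Scn4a* kept theirs.

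Among 9 matrix ligands of dystroglycan, 1 passed 0.01, against 19.4% of all genes. *Bgn*, the gene for biglycan, a small proteoglycan that binds dystroglycan and the sarcoglycans, was at 97 to 168 normalized CPM in the WT groups and 241 to 441 in the KO groups, at 1.23 ± 0.15 (adjusted p = 2.07e-05). *Lama2*, the gene for the laminin chain of the adult fiber, was at 0.08 ± 0.08 (adjusted p = 0.439), and passed with library size alone (0.39, adjusted p = 0.00105). *Bgn* is also a product of connective tissue, and the summed level of the fibroblast markers was higher in the KO groups (values beside *Sgcd*). Of these 7 markers, 2 rose at 0.01, where 19.4% of all genes passed. Their part was not tested.

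Of 17 tested genes for the sugar chain of alpha-dystroglycan, 1 rose and 4 fell at 0.01, against 19.4% of all genes. *Pomgnt2*, which extends the first mannose, was at -0.59 ± 0.11 (adjusted p = 8.84e-04), *Tmem5*, the xylosyltransferase now called *Rxylt1*, at -0.54 ± 0.09 (adjusted p = 3.77e-04), and *Pomt1*, which attaches the first mannose, at -0.48 ± 0.11 (adjusted p = 0.00465). *Dpm2*, part of the enzyme that supplies the mannose donor, was at 0.46 ± 0.11 (adjusted p = 0.00540). With library size alone *Dpm2* kept its call, and *Pomgnt2*, *Tmem5* and *Pomt1* lost theirs (adjusted p = 0.0319, 0.0476 and 0.268). *Dpm2* lost its call in 10 of 22 alternative settings, with an adjusted p of 0.0856 with the length balance as covariate (0.31), 0.0154 with the GC balance and 0.0265 with all 16 libraries. *Pomt1* lost its call in 11 of 22, with an adjusted p of 0.0406, 0.0124 and 0.0146 in the same settings. Leaving out 1 library in turn gave an adjusted p of up to 0.0195 for *Dpm2* and 0.0162 for *Pomt1*, and both calls ended without WT replicate 2 or 3, WT + TAM replicate 7 or *Mtm1* KO replicate 10 or 11. That of *Dpm2* also ended without WT + TAM replicate 6 or *Mtm1* KO + TAM replicate 13, and that of *Pomt1* without *Mtm1* KO + TAM replicate 14. The median log2 fold change over the 17 genes was -0.07, against 0.01 for all genes.

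**Figure D5:**
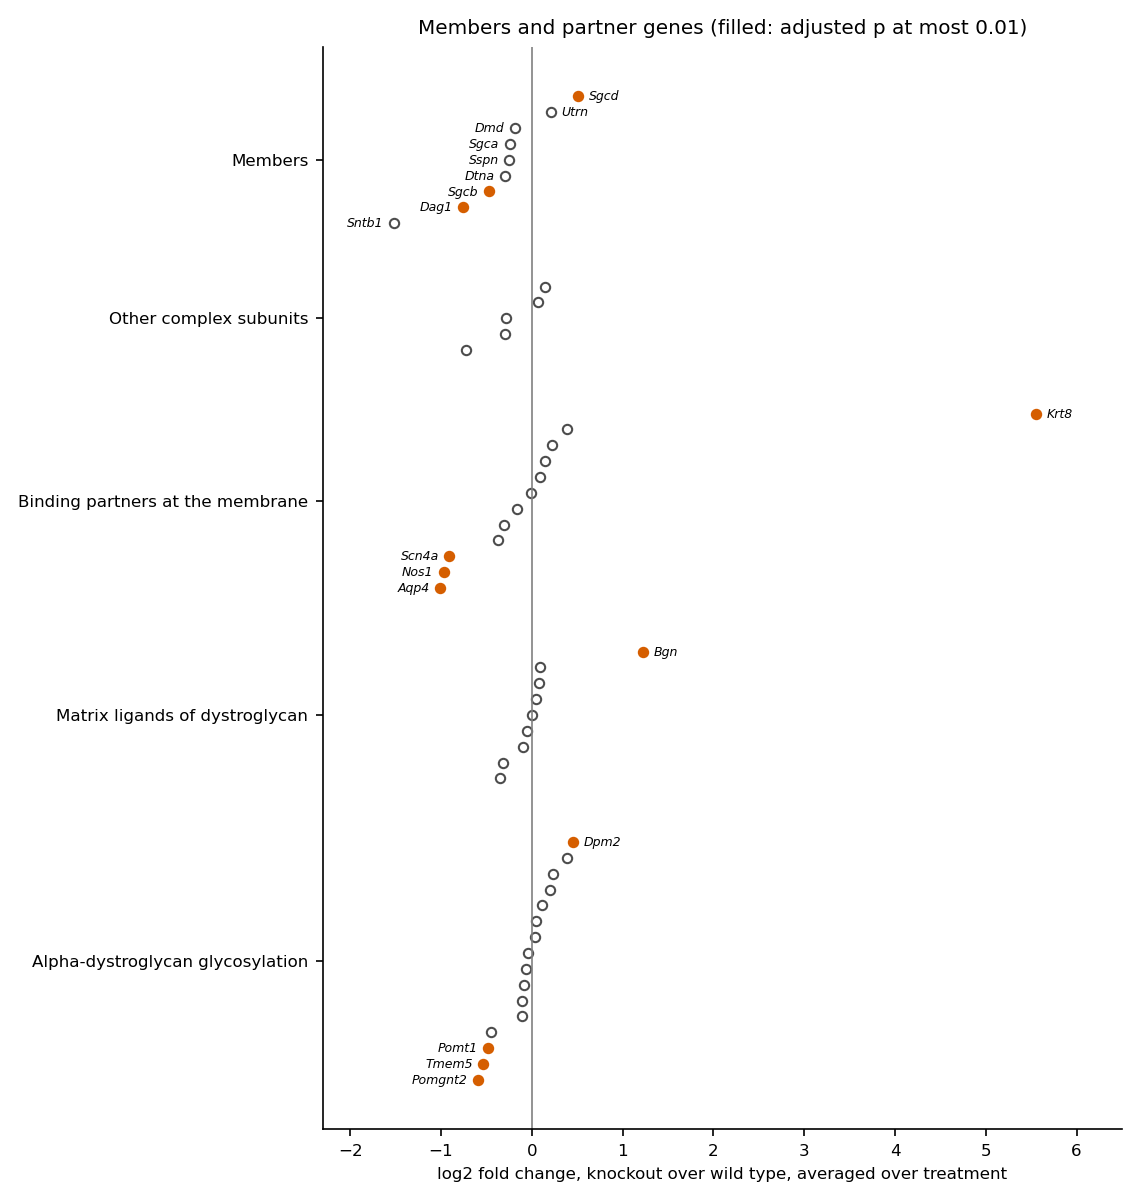
Log2 fold change, knockout over wild type and averaged over treatment (x axis), of the 9 members and of 4 lists of partner genes (rows, 1 point per gene reported here, with the members and the genes that passed named); filled points passed an adjusted p of 0.01. *Krt8* (5.55) and *Bgn* (1.23) stand to the right, and *Aqp4*, *Nos1* and *Scn4a* to the left.

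Across the 14 libraries, the patterns of the members were compared by the root mean square difference of their centred log2 CPM. A small value can mean a like pattern, or that both genes vary little. *Sspn* and *Dtna* had the smallest value among the members (0.15), followed by *Dmd* and *Dtna* (0.18), *Sgcb* and *Sspn* (0.22) and *Utrn* and *Sgcd* (0.22). The spread of each gene about its own mean was 0.19 for *Utrn*, 0.20 for *Sspn*, 0.23 for *Dtna*, 0.29 for *Sgcd* and 0.31 for *Dmd* and for *Sgcb*. The values of *Sgcb* with *Sspn* and of *Utrn* with *Sgcd* exceed the spread of *Sspn* and of *Utrn* alone, and so show no like pattern. Among 10570 genes that averaged 100 counts or more, *Ranbp2* (0.11) and *Cped1* (0.12) were among the 3 nearest to *Dmd*, with a median of 0.39 over all. Those nearest to *Utrn* were *Lpgat1* (0.10), *Pex13* (0.11) and *Smarca5* (0.12), with a median of 0.32. These values share the libraries and their depth.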

How the data were processed

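RNA from quadriceps of 16 mice, 1 library each, was analysed from 2 tables of 41388 genes. The authors aligned reads to GRCm38 with STAR 2.5.0c and deposited raw counts per gene. The deposited RPKM values are those counts over library total and gene length. On the annotation, the strand setting and the gene lengths, nothing is given in the sources used here. The 32 columns, 1 per library in each table, were matched to samples by title.

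Counts of the groups compared were normalized by TMM and tested with edgeR 4.0.16 (R 4.3.3, filterByExpr with minimum count 10 and minimum total 15, quasi-likelihood test, Benjamini-Hochberg adjustment over all genes tested). The threshold was 0.01, as in the paper, and 0.05 is also given. The averaged genotype effect and the difference of tamoxifen effects came from 1 fit of 4 groups. Alternatives were DESeq2 1.42.0, limma 3.58.1 on log2(RPKM + 1), RLE, library size alone, no filter, all 16 libraries, 1 library left out in turn, and covariates for transcript length and GC. The script was tested on simulated data in which 200 genes had a log2 fold change of 1, and called 24.5% of them for *Mtm1* KO against WT and 62% for the averaged genotype effect. It called 50% for *Mtm1* KO + TAM against WT + TAM, 46% for *Mtm1* KO + TAM against *Mtm1* KO and 31% for WT + TAM against WT. For the difference of tamoxifen effects it called 2%.

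The members and lists were chosen with earlier results of these data known. All members were tested in every comparison, and each has its averaged genotype effect given here, while the other comparisons are given for some. List genes are named where they passed 0.01 between genotypes, besides *Nos1* and *Lama2*. Some listed genes are not reported here, and counts and medians over a list include them. Like genes are given for *Dmd* and *Utrn*.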

Additional observations from a re-analysis of the deposited data

Results flagged for a closer look

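Over the 36 sets of 4 labelled libraries (9 genes in 4 groups), Dixon's test at 95% marked 2, both for WT + TAM replicate 6, and chance marks about 1 in 20. *Dmd* was at 123.3 normalized CPM there, against 61.5 to 70.9 in the other 3 libraries of the group. *Sntb1* was at 9.31, against 1.34 to 1.98. That library had the highest balance of long over short transcripts (0.41 on the log2 scale), and the part of this balance was not tested for single libraries. For 0 of 9 genes did tamoxifen move all libraries of one genotype one way and all of the other the opposite way.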

How the results depend on the processing

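For *Mtm1* KO against WT, the 0 members called at 0.01 became 2 at a threshold of 0.05, 1 with DESeq2 (*Sgcb*) and 1 with library size alone (*Sgcd*). For *Mtm1* KO + TAM against WT + TAM, the 0 became 2 at 0.05, 1 with DESeq2 (*Sntb1*) and 1 with library size alone (*Sgcd*). For the averaged genotype effect, the 3 became 5 at 0.05 and 1 with all 16 libraries (*Sgcd*), and ran from 1 to 4 with 1 library left out in turn, the lowest without WT replicate 3 and without *Mtm1* KO replicate 10. The cause was not tested. The other alternatives kept these counts within 1.5 times, and the tamoxifen comparisons stayed at 0 members under each. A like count did not always mean the same genes. For the averaged effect, the members called were *Sgcd* and *Utrn* with library size alone, with limma and with the length covariate. Over all genes, *Mtm1* KO against WT called 531 genes, and 1678 with DESeq2, 1163 with library size alone, 1096 without the filter, 987 in 1 fit of all 4 groups and 211 with 16 libraries. The treated comparison called 979, and 1995 with DESeq2, 1874 with library size alone and 1616 with limma. The averaged effect called 3013, and 5100 with library size alone, 5062 with limma and 1638 with the length covariate. With 1 library left out in turn, *Mtm1* KO against WT called 182 (without *Mtm1* KO replicate 11) to 363 genes (without *Mtm1* KO replicate 9), and each library but the latter lowered it by over 1.5 times. The treated comparison called 424 (without *Mtm1* KO + TAM replicate 15) to 921, and also fell by over 1.5 times without WT + TAM replicates 7 and 8 and *Mtm1* KO + TAM replicates 13 and 14 (537 to 622). The averaged effect called 2300 to 3131. Of 882 values of single members under alternatives, 785 kept direction and side of the threshold, 21 lost a call, 10 gained one and 66 changed sign without a call on either side. Of 650 values of 13 partner genes, 532 kept both, 82 lost a call, 22 gained one and 14 changed sign without a call. No paired analysis was possible because the groups share no replicate numbers and the labels give no litter, although the study calls the mice littermates. Counts of *Sntb1* (9 to 230 per library of the main set) and *Sgcd* (194 to 516) limit the precision of these genes.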
